A study of Rattus norvegicus with 24 samples.

Results

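Potassium channel genes, taken as every probe whose symbol in the platform's probe-to-gene table starts with Kcn, were examined in rat dorsal striatum after methamphetamine self-administration. The rule found 86 probes for 81 genes among 22523 probes, of which 13793 carry a gene symbol. Potassium channels let potassium leave neurons and glia, and so set the resting potential, shape each action potential and limit repetitive firing. Most Kcn genes encode a pore subunit, and pores of related subunits assemble into one channel. Others encode auxiliary subunits such as the cytoplasmic beta subunits, the calcium-binding partners of Shal channels, the KCNE peptides and the beta subunits of large-conductance channels. In the striatum, Shal channels and inward rectifiers are known for holding projection neurons at a hyperpolarized potential and delaying their first spike, while Shaw channels support the fast firing of interneurons.

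All rats were male Sprague-Dawley animals, and their age is not given in the labels. Methamphetamine (METH) rats self-administered the drug intravenously, 0.1 mg/kg with each injection, over 8 days of sessions that lasted 15 h, and were killed 2 h or 24 h after the last session. The controls were yoked saline rats, for which the labels give no time of death. Each of the 24 arrays was a single-colour Illumina RatRef-12 array of 1 sample. The 6 arrays of METH rats killed at 2 h shared slide 1 with 6 saline arrays, and the 6 arrays of METH rats killed at 24 h shared slides 2 and 3 with the other 6 saline arrays. The labels do not tie arrays to named animals, so the p-values measure the spread between these samples. The tissue was whole dissected striatum, in which fewer cells of a type and less RNA per cell cannot be told apart.

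The number of detected probes per array was 8208 to 10306. Values below are normalized log2 signals, called levels here, which may be compared between arrays for 1 probe but not between probes. The residual SD of a tested Kcn probe had a median of 0.265 on slide 1 and 0.189 on slides 2 and 3, and the number of arrays limits the precision. The dissected tissue carried its defining transcripts: all 21 projection neuron markers with a probe passed the detection filter, and their mean level was 9.72 to 10.22 over the arrays. Of 10 cortical excitatory neuron markers with a probe, 6 were measurable, which bears on the 2 h comparison below.

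A probe was tested where its detection p was under 0.05 on at least 6 arrays. This held for 44 Kcn probes of 42 genes (51.2% of the Kcn probes, against 46.0% of all probes). A signal was found on all 24 arrays for 23 Kcn probes, on 6 to 23 arrays for 21, on 1 to 5 arrays for 8 and on no array for 34. All 3 Shal probes, both sodium-activated channel probes, all 4 Shaw probes and all 4 probes of Shal-interacting calcium sensors were tested. Of 14 inward rectifier probes 6 were tested, and of 11 probes of leak channels with a tandem pore 4 were tested. The probes of Kcnb2, a Shab-type pore, and of the regulator Kcnrg were detected on no array.

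**Figure D1:**
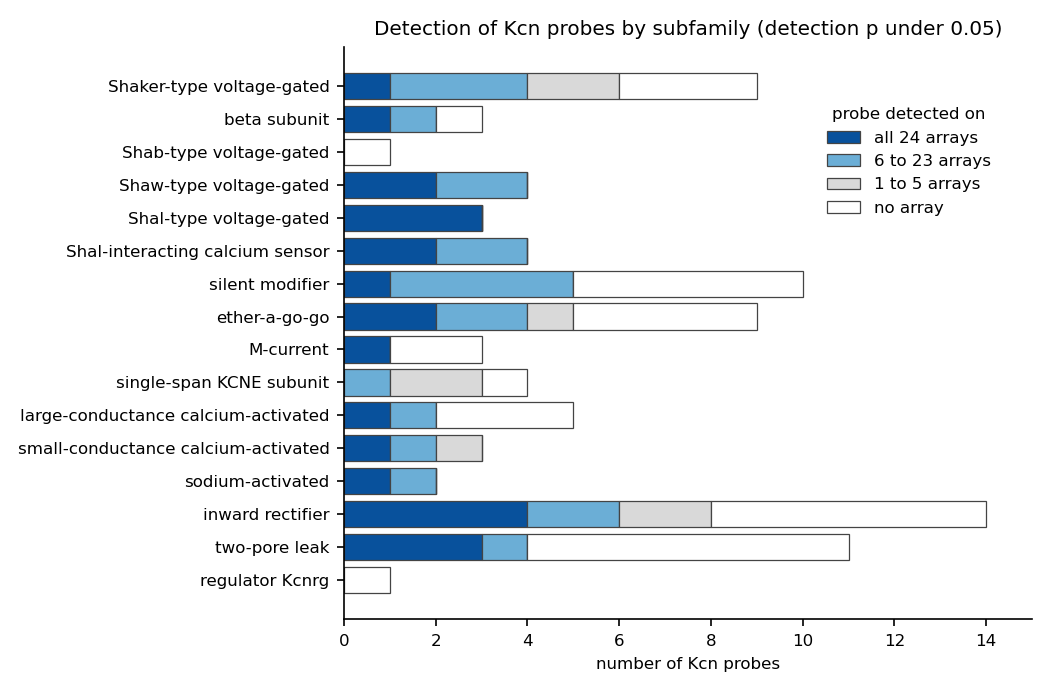
Number of Kcn probes (x axis) in each subfamily (y axis), coloured by the number of the 24 arrays on which the probe was detected. The Shal, Shaw, calcium sensor and sodium-activated probes were each detected on at least 6 arrays, whereas 34 of the 86 probes, 7 of them for leak channels, were detected on no array.

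Several genes of known striatal importance were therefore not measurable with these probes. The probes for Kcnma1, the pore of the large-conductance calcium-activated channel, and for Kcnq3, a pore of the M-current, were detected on no array. The same held for Kcnj2, a classical inward rectifier, Kcnh4, an ether-a-go-go pore, Kcna2, an axonal Shaker pore, and the glial rectifiers Kcnj10 and Kcnj16. The Kcnj10 probe gave no signal although all 9 astrocyte markers with a probe were measurable, so no level of Kcnj10 can be read from it. The probe of Kcnj3, a pore of the channel opened by G proteins, was detected on 5 arrays and that of Kcna1, an axonal Shaker pore, on 1 array.

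The first question was which channel transcripts differed from yoked saline 2 h after the last session. By limma with Benjamini-Hochberg adjustment over all 10355 tested probes, 0 of 44 Kcn probes passed an adjusted p of 0.05 at 2 h, against 3 of all probes (0.029%). The lowest adjusted p among them was 0.313. At an unadjusted p under 0.05 there were 5 Kcn probes at 2 h (11.4%), 3 higher and 2 lower, against 6.09% of all tested probes. Among the 5, Kcns3 would have missed the detection filter without the METH samples at 2 h, where it is higher. Kcnh2 lay below the detection limit on nearly all arrays of slide 1, and Kcnj8 on most of them, so this share is only a description. The median log2 change was -0.03 over Kcn probes and -0.004 over all tested probes. Kcn changes ran from -0.38 to 0.65, with 18 probes above 0 and 26 below. For 26 of the 44 probes (59.1%) the 95% interval lay within a log2 change of 0.5 in either direction, against 70.5% of all tested probes, and for 43 it lay within 1.

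At 24 h, 0 of 44 Kcn probes passed the adjusted threshold by limma, against 6 of all probes (0.0579%), and the lowest adjusted p was 0.827. An unadjusted p under 0.05 was reached by 4 Kcn probes (9.09%), 1 higher and 3 lower, against 4.27% of all tested probes. Among the 4, Kcnh6 would have missed the detection filter without the saline arrays of slides 2 and 3, where it is higher. Kcnip1 would have missed it without the METH samples at 24 h, where it is higher. The share is therefore only a description. The median log2 change was 0.01 over Kcn probes and -0.002 over all, and the range was -0.44 to 0.39. The intervals were narrower than at 2 h: 39 of 44 lay within a log2 change of 0.5 (88.6%, against 93.2% of all), and all 44 lay within 1. When the 24 h effect was set against the 2 h effect, 0 of 44 passed, as did 0 of all 10355 probes (0%). Unadjusted, 2 Kcn probes (4.55%) and 4.94% of all probes had a p under 0.05 for that difference.

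**Figure D2:**
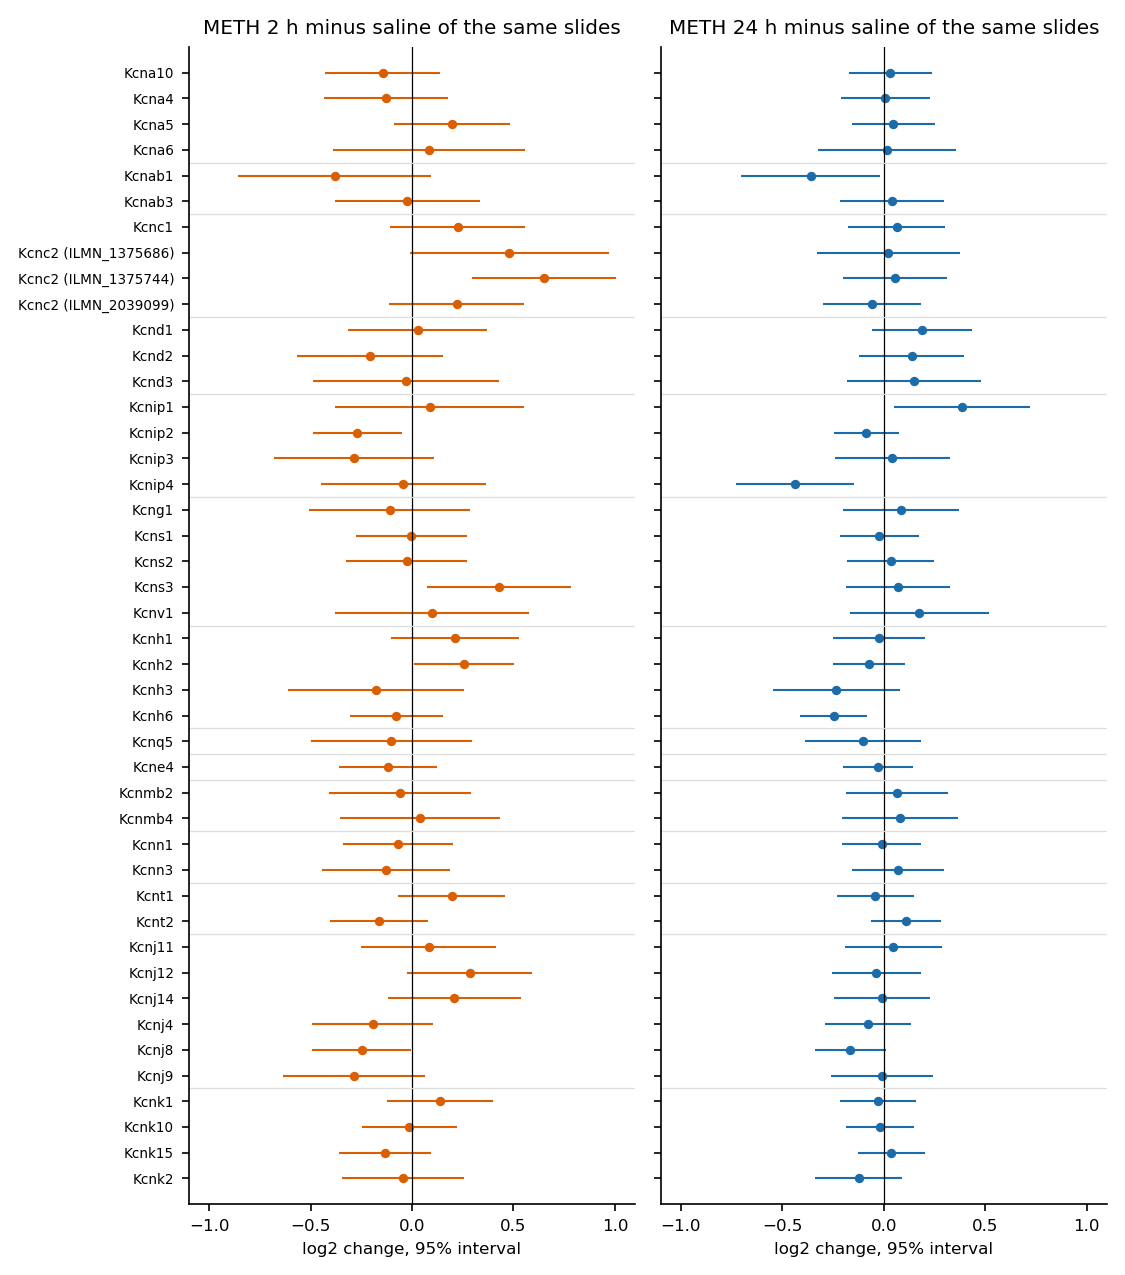
Log2 change, METH minus saline of the same slides (x axis), for each of the 44 tested Kcn probes (y axis, grouped by subfamily), with points for the estimate and bars for the 95% interval. At 2 h the points run from -0.38 to 0.65 and at 24 h from -0.44 to 0.39, and the bars are shorter at 24 h.

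The highest Kcn change at 2 h belonged to Kcnc2, a Shaw-type pore of fast-spiking interneurons and thalamic neurons. For the brightest of its 3 probes, ILMN_1375744, saline levels on slide 1 ran from 8.39 through a median of 8.78 to 9.03. METH levels at 2 h ran from 8.77 through a median of 9.54 to 9.70. In 5 of 6 METH samples the level lay above every saline sample, and METH replicate 4, at 8.77, lay among the saline samples. The means were 8.77 ± 0.24 in saline and 9.42 ± 0.35 in METH samples (SD, n = 6 each). The log2 change was 0.65 with an SE of 0.17 (1.57-fold; 95% interval 0.30 to 1.00), with an unadjusted p of 0.000843 and an adjusted p of 0.313 by limma. At 24 h the METH samples, from 8.34 to 8.82, lay within the range of saline samples, 8.10 to 8.97. Mean levels were 8.60 ± 0.29 in saline and 8.65 ± 0.17 in METH samples (SD, n = 6 each). The log2 change there was 0.06 with an SE of 0.12. The effect at 24 h minus that at 2 h was -0.59 with an SE of 0.21, the lowest p of any Kcn probe for that contrast (unadjusted p of 0.00953, adjusted p of 0.896 by limma).

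The other Kcnc2 probes gave smaller changes at 2 h. For ILMN_1375686, saline levels ran from 5.20 through a median of 5.60 to 5.74 and METH levels from 5.19 through 6.01 to 6.86. As with the first probe, 5 METH samples lay above every saline sample, while METH replicate 4 lay below all of them. Its log2 difference was 0.48 with an SE of 0.24 (unadjusted p of 0.0554). For ILMN_2039099, saline levels ran from 5.32 through 5.65 to 6.47 and METH levels from 5.55 through 6.02 to 6.09, and the groups overlapped. Its log2 change was 0.22 with an SE of 0.16 (unadjusted p of 0.184). The probe table assigns ILMN_1375744 and ILMN_2039099 to the same RefSeq transcript and ILMN_1375686 to another one. At 24 h the log2 changes of ILMN_1375686 and ILMN_2039099 were 0.02 and -0.06. All 3 probes thus lay above 0 at 2 h with METH replicate 4 lowest of its group, and all 3 lay near 0 at 24 h.

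**Figure D3:**
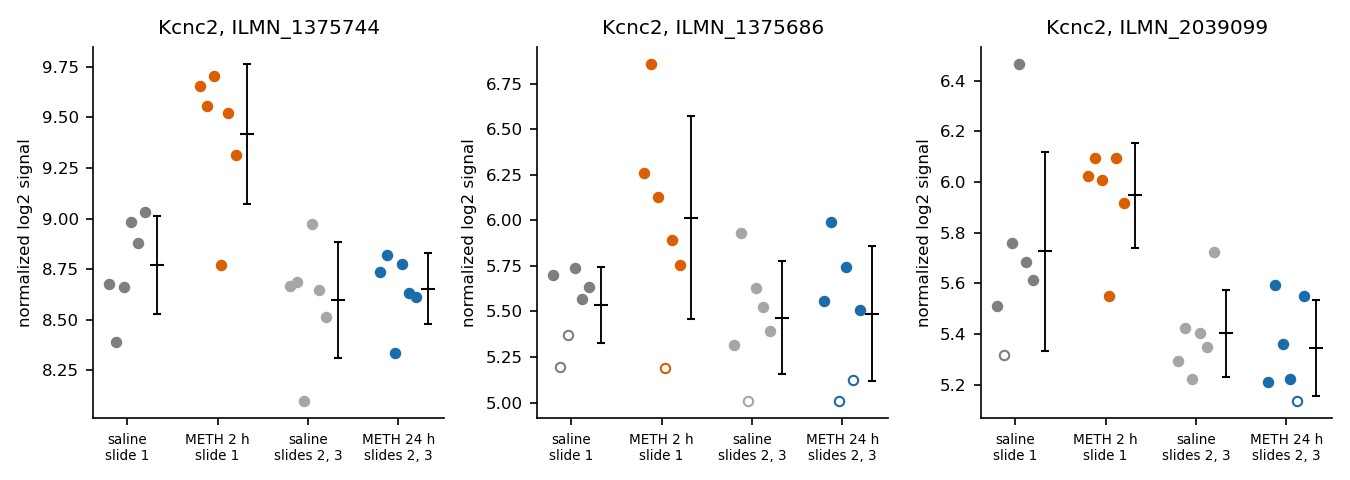
Normalized log2 signal (y axis) of the 3 Kcnc2 probes on each array, by group (x axis); open points are below the detection limit, and bars show the mean and SD of 6 arrays. At 2 h, METH replicate 4 is the lowest of the METH arrays in each panel, at 8.77, 5.19 and 5.55.

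Markers of cortical excitatory neurons, a cell type next to the dissected tissue, moved in the same direction on slide 1. Of 6 tested markers 5 lay above 0 at 2 h, with a median log2 change of 0.69, and 4 had an unadjusted p under 0.05, but 0 passed the adjusted threshold. Their summed linear signal was 1885 to 2878 in saline and 2179 to 2948 in METH samples at 2 h. Slc17a7, the vesicular glutamate transporter of these cells, had mean levels of 5.28 in saline and 6.11 in METH samples, and Neurod6, their transcription factor, 5.41 and 6.60. Both saline means lay at the detection limit, since the lowest detected level was 5.20 to 5.46 on the saline arrays of slide 1. Neurod1 was detected on no array. METH replicate 4 had the lowest mean level of these markers among METH samples at 2 h, 6.79, and the others had 6.81 to 7.74. METH replicate 6 had nearly the same mean, 6.81, and its level of Kcnc2 probe ILMN_1375744 was 9.31, above every saline sample. Saline replicate 4 had a marker mean of 7.23, the highest of its group, with that probe at 8.98. With a weight for each array, METH replicate 6 and saline replicate 4 had the lowest weights of slide 1, 0.41 and 0.35. With the mean of these markers as a covariate the Kcnc2 change of ILMN_1375744 was 0.37 (adjusted p of 0.568 by limma), and those of the other Kcnc2 probes were 0.01 and -0.02. That mean itself differed between the groups of slide 1, at 6.63 in saline and 7.20 in METH samples. The part of these cells in the Kcnc2 value can therefore not be told apart from METH. The covariate did not shrink every Kcn change at 2 h. With it Kcnip3 went from -0.29 to -0.66, Kcnh3 from -0.18 to -0.47 and Kcnmb4 from 0.04 to -0.32, none past the adjusted threshold. Of 4 tested thalamus and pallidum markers 3 lay above 0, with a median of 0.20 and summed signals of 141 to 240 in saline and 207 to 251 in METH samples. Their mean level was close to the detection limit, at 5.12 to 5.73 in saline and 5.63 to 5.84 in METH samples. Their part in the Kcnc2 value was not tested. Of 9 tested interneuron markers 6 lay above 0 and 3 below, with a median of 0.16, and 2 had an unadjusted p under 0.05 on the higher side and 1 on the lower side, with 0 past the adjusted threshold. Among them Pvalb, the calcium-binding protein of fast-spiking interneurons, had a log2 change of 0.29 with an unadjusted p of 0.261. Their summed signal was 1213 to 1597 in saline and 1364 to 1983 in METH samples.

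Kcnc1, another Shaw pore, had levels of 7.05 ± 0.29 in saline and 7.27 ± 0.19 in METH samples at 2 h (SD, n = 6 each). Its log2 difference was 0.23 with an SE of 0.16, so all 4 Shaw probes, which stand for 2 genes, lay above 0 at 2 h, with a median of 0.35. They did so under every scaling tried. With median scaling and in the deposited log2 values their median was 0.49 and 0.61, while that of all probes was 0.15 and 0.20. With the cortical markers as a covariate 3 of 4 lay above 0, with a median of 0.19. At 24 h the median of the Shaw probes was 0.04, and Kcnc1 had a log2 change of 0.06.

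Phosphorylated CREB, the factor in the title of the series, binds the palindrome TGACGTCA or its shorter form TGACG. RefSeq promoters of the assembly GRCr8 were therefore read for the Kcn genes, in windows of 300 bases around each start. Of 62 such promoters, from 56 genes, 0 held TGACGTCA, against 1.83% of 33469 promoters of all genes. The short form, searched on both strands and contained in every long one, was present in 13 of 62 (21.0%), against 21.2% of all promoters. The Kcnc2 promoter, shown because Kcnc2 had the highest change, held neither and is printed without capitals. It lies on the plus strand at chr7:49587364-49587663.
Kcnc2: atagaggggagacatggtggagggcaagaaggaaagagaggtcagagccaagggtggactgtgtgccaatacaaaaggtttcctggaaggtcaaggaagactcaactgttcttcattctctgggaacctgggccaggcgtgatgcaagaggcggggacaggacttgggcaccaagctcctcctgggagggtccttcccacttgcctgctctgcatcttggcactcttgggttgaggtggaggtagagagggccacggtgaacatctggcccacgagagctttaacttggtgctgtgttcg

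Of the 29 tested Kcn genes with a promoter in that table, 7 held the short form. Their sites are shown with the bases on either side, in the direction in which TGACG, in capitals, is read, because they are the Kcn genes of this study in which a CREB-type element could be compared with a measured change.
Kcnab1: ggcagagcccccTGACGgatcaaccctcc
Kcnab3: agtgcacaccacTGACGggaatggaagct
Kcne4: tcccggaacacgTGACGatgcatttcttg
Kcnip3: cggaaagattagTGACGgtccctttcagc
Kcnj4: gcgtctcccgagTGACGaggcgcgaacca
Kcnq5: cacctcacaaagTGACGcccccaacaggt
Kcnt1: acccccacacacTGACGgacacacacata
The windows lie at chr2:151614386-151614414 for Kcnab1, chr10:54546394-54546422 for Kcnab3, chr9:87695950-87695978 for Kcne4 and chr3:29081167-29081195 for Kcnt1, on the plus strand. Those of Kcnip3, Kcnj4 and Kcnq5 lie on the minus strand, at chr3:135195397-135195425, chr7:112954592-112954620 and chr9:31891321-31891349. The log2 changes of these genes at 2 h were -0.38 for Kcnab1, -0.02 for Kcnab3, -0.12 for Kcne4, -0.29 for Kcnip3, -0.19 for Kcnj4, -0.10 for Kcnq5 and 0.19 for Kcnt1. None of the 7 passed the test at either time. A match of these letters describes the sequence and does not show that CREB binds there.

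Shal channels carry the transient A-type current, and their pores assemble with calcium sensors of the Kcnip group. Kcnd2, the main Shal pore of projection neurons, had saline levels of 9.70 to 10.13 (median 9.96) and METH levels of 9.50 to 9.95 (median 9.71) at 2 h. On the log2 scale the change was -0.21 with an SE of 0.18, and the groups overlapped. With median scaling and in the deposited log2 values it was 0.03, and there all 3 Shal probes lay above 0 at 2 h, while the median of all probes stood at 0.15 and 0.20. At 24 h it was 0.14 with an SE of 0.13. Kcnd1 and Kcnd3, the other Shal pores, had log2 changes of 0.03 and -0.03 at 2 h. At 24 h all 3 Shal probes lay above 0, with Kcnd1 at 0.19 and Kcnd3 at 0.15, and each interval included 0. Without saline replicate 5 of slides 2 and 3, which was low for Kcnd2 and Kcnd3, 2 of the 3 lay above 0, with a median of 0.02. The Kcnd2 difference between the times was 0.35 with an SE of 0.22 (unadjusted p of 0.122).

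Among the calcium sensors, Kcnip2 had the lowest p at 2 h on the lower side. Its saline levels on slide 1 ran from 9.32 through 9.71 to 9.99 and its METH levels from 9.22 through 9.43 to 9.54. All 6 METH samples lay below the saline mean, but only 1 lay below every saline sample, since saline replicate 1 was at 9.32. The estimated log2 change was -0.27 with an SE of 0.11 (unadjusted p of 0.0189, adjusted p of 0.691 by limma). It was -0.03 when arrays were scaled by their medians and -0.04 in the authors' deposited log2 values. The median of all probes stood at 0.15 and 0.20 there. The size of the Kcnip2 change against 0 thus depended on the scaling, while it stayed below the median of all probes. Projection neuron markers ran the same way as Kcnd2, Kcnip2 and Kcnab1 at 2 h: 16 of 21 lay below 0, with a median log2 change of -0.17, and 5 had an unadjusted p under 0.05 on the lower side and 1 on the higher side, but 0 passed the adjusted threshold. Their summed signal was 47003 to 55360 in saline and 39204 to 48843 in METH samples on slide 1. With median scaling 10 of 21 lay below 0, with a median of 0.01, while the median of all probes was 0.15. Their part in these values was not tested. At 24 h Kcnip2 in saline was at 9.77 ± 0.05 and METH at 9.68 ± 0.11 (SD, n = 6 each), a log2 change of -0.09.

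Kcnip4, another sensor of Shal channels, was the only Kcn probe whose groups did not overlap at either time. At 24 h its saline levels ran from 6.02 through a median of 6.13 to 6.39, and its METH levels from 5.43 through 5.76 to 6.01. All 6 METH samples lay below every saline sample, which held for 0.0966% of all tested probes at 24 h and for 0.145% at 2 h. No Kcn probe had every METH sample above every saline sample, which held for 0.251% of all tested probes at 2 h and 0.0773% at 24 h. The gap between the highest METH and the lowest saline sample was narrow. METH minus saline came to -0.44 with an SE of 0.14 (1.35-fold lower; 95% interval -0.73 to -0.14), with an unadjusted p of 0.00497 and an adjusted p of 0.839 by limma. Within slide 2 it was -0.48 and within slide 3 -0.39. At 2 h the log2 change was -0.04 with an SE of 0.20, and saline levels on slide 1 were spread from 5.34 to 6.70. The difference between the times was -0.39 with an SE of 0.24 (unadjusted p of 0.118), so an effect confined to 24 h was not shown.

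Kcnip1, a sensor found in interneurons among other cells, had a signal on 2 of 6 saline arrays and 6 of 6 METH arrays at 24 h and on 1 of 12 arrays of slide 1. Its saline levels ran from 4.77 through 5.09 to 6.07 and its METH levels from 5.29 through 5.59 to 5.93. Saline replicate 1, at 6.07, lay above every METH sample. The log2 change was 0.39 with an SE of 0.16 (unadjusted p of 0.0254, adjusted p of 0.998 by limma). It was 0.02 within slide 2 and 0.75 within slide 3, so the value came from slide 3. The probe passed the filter mainly through the METH samples at 24 h, where it is higher, so its p is not read further. Kcnip3, a sensor that also acts as a transcriptional repressor, had log2 changes of -0.29 with an SE of 0.19 at 2 h and 0.04 at 24 h.

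Kcnab1, the beta subunit that gives Shaker channels fast inactivation, had negative log2 changes at both times. At 2 h its saline levels ran from 8.72 through 8.86 to 9.11 and its METH levels from 7.70 through 8.54 to 9.04. The METH samples were more spread than the saline samples, with 4 of 6 below every saline sample. Its log2 change was -0.38 with an SE of 0.23 (unadjusted p of 0.112), and without METH replicate 6 it was -0.22. At 24 h saline levels ran from 8.51 through 8.71 to 8.89 and METH levels from 7.28 through 8.52 to 8.79. METH replicate 3 lay far below the others, and 3 of 6 METH samples lay below every saline sample. On the log2 scale the change was -0.36 with an SE of 0.17 (unadjusted p of 0.0399, adjusted p of 0.998 by limma), and without METH replicate 3 it was -0.17. Within slide 2, which holds that replicate, it was -0.69, and within slide 3 it was -0.03.

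The Shaker pores themselves showed changes close to 0. Kcna4, the inactivating Shaker pore, had levels of 6.15 ± 0.23 in saline and 6.02 ± 0.29 in METH samples at 2 h (SD, n = 6 each), and 6.78 ± 0.32 and 6.79 ± 0.26 at 24 h. Its log2 changes were -0.13 with an SE of 0.15 and 0.01 with an SE of 0.11. Over the 4 tested Shaker probes the log2 changes ran from -0.14 to 0.20 at 2 h and from 0.01 to 0.05 at 24 h. In the values reported the range at 24 h is the narrowest of any Kcn subfamily with 4 or more tested probes. Over the alternative settings Kcna10 ran from -0.01 to 0.24 at 24 h and Kcna4 from -0.08 to 0.05. With median scaling and in the deposited log2 values 2 of the 4 Shaker probes lay above 0 at 24 h. Kcnab3, a beta subunit, had log2 changes of -0.02 and 0.04.

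The silent modifier subunits form no channel alone and alter Shab pores. Of 10 probes 5 were tested, among them Kcns3, whose probe lay near the detection limit. Its saline levels ran from 4.75 through 4.98 to 5.18 with detection on 0 of 6 arrays, and its METH levels from 4.97 through 5.28 to 6.16 with detection on 3 of 6. In 4 of 6 METH samples the level lay above every saline sample. The estimated log2 change was 0.43 with an SE of 0.17 (unadjusted p of 0.0201, adjusted p of 0.691 by limma). The probe was detected on 8 arrays, and without the METH samples at 2 h, where it is higher, 5 would remain, under the filter, so its p is not read further. Without METH replicate 2 the log2 change was 0.28, and with the mean of the cortical markers as a covariate it was 0.07. METH replicate 2 was the sample with the highest mean of those markers, 7.74. At 24 h the Kcns3 log2 change was 0.07 with an SE of 0.12. Kcng1, Kcns1, Kcns2 and Kcnv1, the other tested modifiers, had log2 changes between -0.11 and 0.10 at 2 h, and Kcnv1 had 0.18 with an SE of 0.17 at 24 h.

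**Figure D4:**
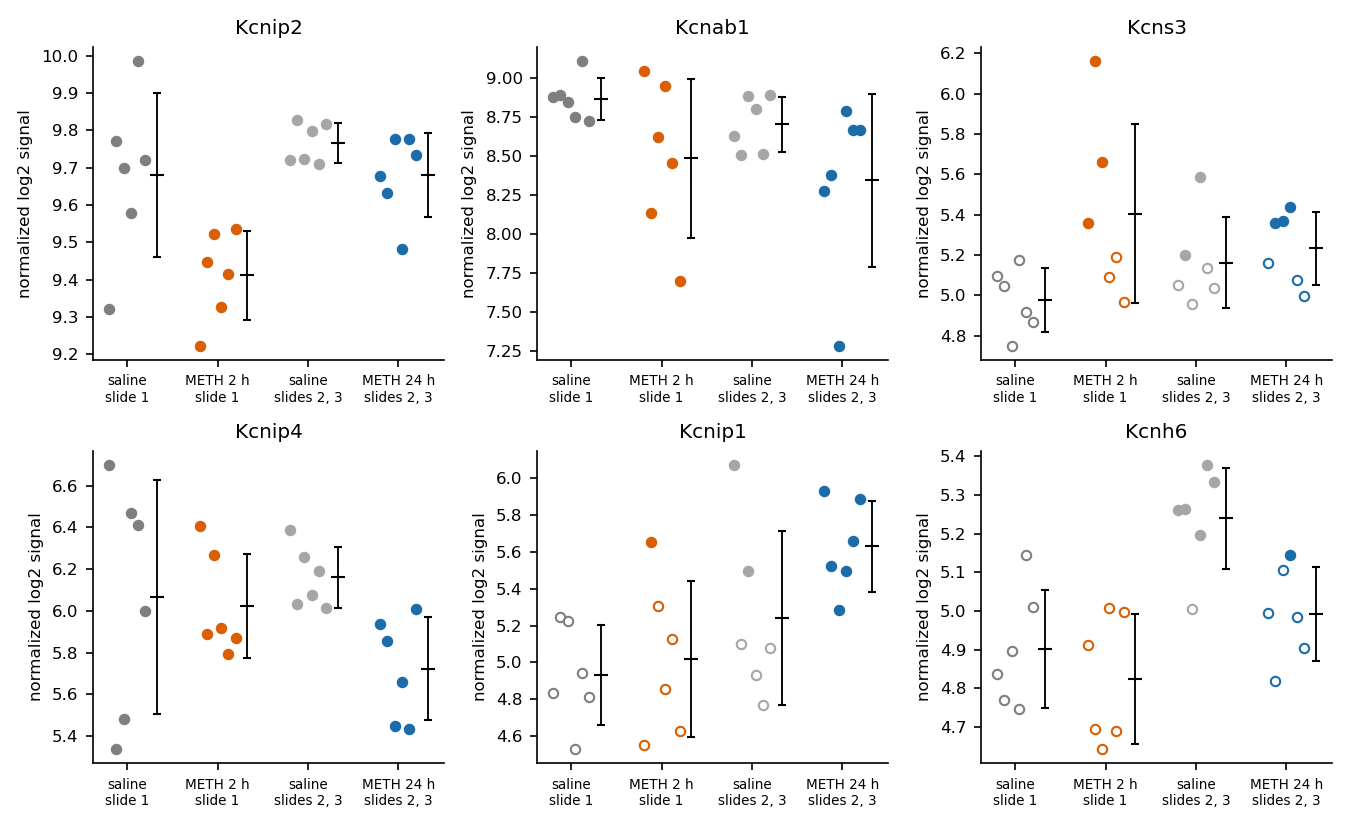
Normalized log2 signal (y axis) of Kcnip2, Kcnab1, Kcns3, Kcnip4, Kcnip1 and Kcnh6 on each array, by group (x axis); open points are below the detection limit, and bars show the mean and SD of 6 arrays. In the Kcnip4 panel all 6 METH arrays at 24 h lie below the 6 saline arrays of the same slides, and in the Kcnab1 panel METH replicate 3 at 24 h lies at 7.28.

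Ether-a-go-go channels open slowly and set excitability near threshold. At 24 h all 4 tested probes lay below 0, with a median of -0.15, whereas at 2 h there were 2 above and 2 below (3 above with median scaling or the deposited log2 values, 1 above with the cortical markers as a covariate). They lay below 0 at 24 h under every scaling tried, and 1 turned positive when saline replicate 4 or 6 of slides 2 and 3 or METH replicate 6 at 24 h was left out. One of the 4, Kcnh6, passed the filter through saline arrays, where it is higher, so its sign adds nothing to this count. With detection required on at least 12 arrays 3 probes remained at 24 h, all below 0, with a median of -0.07. Kcnh6 had the lowest p of all Kcn probes at 24 h. Its saline levels ran from 5.01 through 5.26 to 5.38, with detection on 5 of 6 arrays, and its METH levels from 4.82 through 4.99 to 5.15, with detection on 1 of 6. In 4 of 6 METH samples the level lay below every saline sample. METH minus saline came to -0.25 with an SE of 0.08 (unadjusted p of 0.00462, adjusted p of 0.827 by limma), -0.20 within slide 2 and -0.29 within slide 3. The probe was detected on no array of slide 1 and passed the filter at its minimum of 6 arrays, 5 of them saline arrays, so its p is not read further.

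Kcnh3, an ether-a-go-go pore of the forebrain, had levels of 9.83 ± 0.21 in saline and 9.59 ± 0.38 in METH samples at 24 h (SD, n = 6 each). Its log2 difference was -0.23 with an SE of 0.15, after -0.18 with an SE of 0.21 at 2 h. Kcnh2, a pore best known from the heart, had a signal on 0 of 6 saline arrays and 1 of 6 METH arrays of slide 1. Its log2 change at 2 h of 0.26 with an SE of 0.12 (unadjusted p of 0.0406, adjusted p of 0.792 by limma) therefore compares values below the detection limit, and no fold is given. At 24 h Kcnh2 had a signal on 6 of 6 saline arrays and 5 of 6 METH arrays, with a log2 change of -0.07. The difference between the times was -0.33 for Kcnh2 (unadjusted p of 0.0333, adjusted p of 0.985 by limma). Kcnh1, the fourth tested pore, had log2 changes of 0.21 with an SE of 0.15 at 2 h and -0.03 at 24 h. The probe of Kcnh8 that was detected on 4 arrays had 3 of these among METH samples at 2 h, and the other Kcnh8 probe was detected on none.

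Kcnq5, an M-current pore, was measured at 6.90 ± 0.29 in saline and 6.80 ± 0.23 in METH samples at 2 h, and at 7.27 ± 0.33 and 7.17 ± 0.33 at 24 h (SD, n = 6 each). The log2 change was -0.10 at both times, with SEs of 0.19 and 0.14. Kcne4, a KCNE peptide that restrains several pores, had log2 changes of -0.12 and -0.03.

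Calcium- and sodium-activated channels follow bursts of firing with a hyperpolarization. Kcnmb4, the neuronal beta subunit of the large-conductance channel, had log2 changes of 0.04 with an SE of 0.19 at 2 h and 0.08 with an SE of 0.14 at 24 h. Kcnn3, a small-conductance pore known from dopamine neurons, had -0.13 with an SE of 0.15 and 0.07 with an SE of 0.11. Kcnt1, a sodium-activated pore, had levels of 6.61 ± 0.25 in saline and 6.80 ± 0.14 in METH samples at 2 h (SD, n = 6 each). Its log2 change was 0.19 with an SE of 0.13, and at 24 h it was -0.04. Kcnt2, the other sodium-activated pore, had -0.16 with an SE of 0.12 at 2 h and 0.11 with an SE of 0.08 at 24 h, from levels at the detection limit. On slide 1 its signal was found on 2 of 6 saline arrays and on 0 of 6 METH arrays, and on slides 2 and 3 on 2 of 6 and 5 of 6. Without the METH samples at 24 h, where it is higher, the probe would not have passed the filter, so no p is read for it.

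Inward rectifiers hold the resting potential, and those opened by G proteins carry the response to several inhibitory transmitters. Of 6 tested probes 3 lay above 0 at 2 h and 1 at 24 h, with medians of -0.06 and -0.02. Kcnj4, a rectifier abundant in the striatum, had levels of 6.61 ± 0.31 in saline and 6.41 ± 0.21 in METH samples at 2 h (SD, n = 6 each). Its log2 difference was -0.19 with an SE of 0.14, and at 24 h it was -0.08 with an SE of 0.10. Kcnj9, a pore of the channel opened by G proteins, had -0.29 with an SE of 0.17 at 2 h and -0.01 at 24 h. Kcnj12, a rectifier close to Kcnj2, had 0.28 with an SE of 0.15 at 2 h (unadjusted p of 0.0685) and -0.04 at 24 h, a difference of -0.32 with an SE of 0.18. Kcnj11, the pore of the channel that closes when ATP is high, had 0.08 and 0.05.

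Kcnj8, the ATP-sensitive rectifier of pericytes and vascular muscle, lay near the detection limit. At 2 h its saline levels ran from 4.97 through 5.22 to 5.31 and its METH levels from 4.84 through 4.87 to 5.27, with detection on 1 of 6 arrays in each group. In 5 of 6 METH samples the level lay below every saline sample, and METH replicate 4 was the exception. On the log2 scale the change was -0.25 with an SE of 0.12 (unadjusted p of 0.0472, adjusted p of 0.809 by limma), and at 24 h it was -0.16 with an SE of 0.09. Of the 8 arrays on which it was detected 4 were saline arrays of slides 2 and 3, without which it would not have passed the filter. Of the 5 tested endothelial and pericyte markers 4 lay below 0 at 2 h (3 with median scaling), with a median of -0.15, and their summed signal was 2309 to 2650 in saline and 1739 to 2468 in METH samples. Of these markers Rgs5, which marks pericytes, was detected on no array. Their part in the Kcnj8 value was not tested.

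Leak channels of the tandem-pore type conduct at rest. Kcnk2, a leak pore regulated by stretch, lipids and G proteins, had levels of 10.13 ± 0.16 in saline and 10.08 ± 0.35 in METH samples at 2 h, and of 9.95 ± 0.18 and 9.83 ± 0.19 at 24 h (SD, n = 6 each). The log2 changes were -0.04 with an SE of 0.15 and -0.12 with an SE of 0.11. Kcnk1, a weakly conducting leak pore, had 0.14 with an SE of 0.13 at 2 h and -0.03 with an SE of 0.09 at 24 h. Over the 4 tested leak probes the changes ran from -0.13 to 0.14 at 2 h and from -0.12 to 0.04 at 24 h.

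Of the other genes with several probes, Kcna10, a Shaker pore, had 1 probe that was tested and 1 that was detected on 4 arrays. The tested probe had log2 changes of -0.14 with an SE of 0.14 and 0.03 with an SE of 0.10. The probes of Kcnk5, a leak pore, were detected on no array, so a comparison between probes of a gene was possible for Kcnc2 alone.

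Kcne2, a KCNE peptide made in the choroid plexus, was detected on 2 of 24 arrays. These were saline replicate 5 of slide 1, at 5.69, and saline replicate 6 of slides 2 and 3, at 5.65, and the next array was METH replicate 6 at 24 h, at 5.03. The same 3 arrays had the highest mean levels of choroid plexus and ependyma markers, at 8.84, 8.66 and 8.67. The summed signal of these 4 tested markers was 800 to 8434 in saline and 570 to 1202 in METH samples on slide 1, and 755 to 7272 and 497 to 8424 on slides 2 and 3. Kcnj13, a rectifier of the same tissue, was detected on no array.

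**Figure D5:**
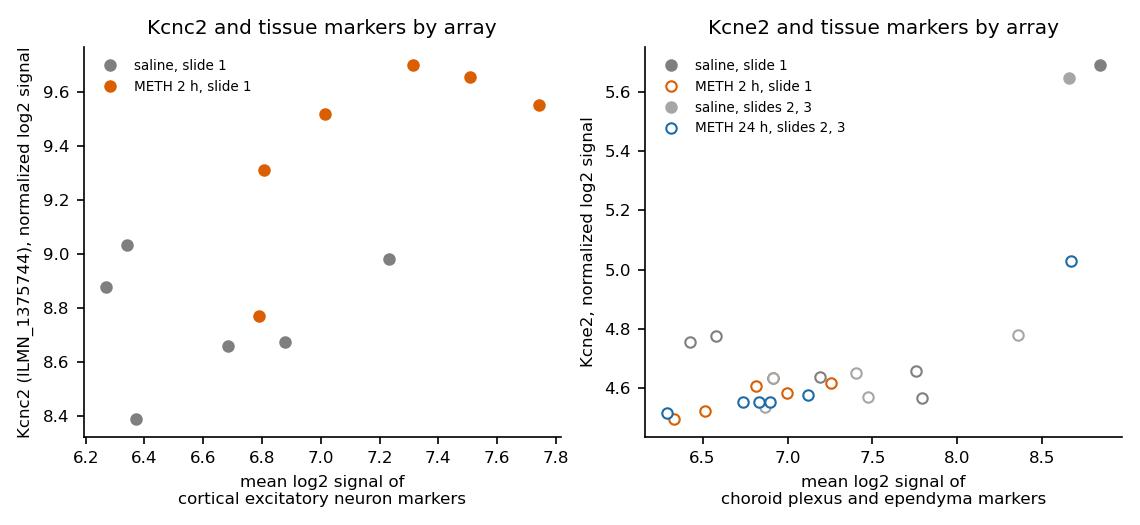
Left, the level of Kcnc2 probe ILMN_1375744 (y axis) against the mean level of cortical excitatory neuron markers (x axis) on the 12 arrays of slide 1; right, the level of Kcne2 (y axis) against the mean level of choroid plexus and ependyma markers (x axis) on all 24 arrays, all as normalized log2 signals, with open points below the detection limit. METH replicate 4 at 2 h, at 8.77 for Kcnc2, has the lowest marker mean of its group, 6.79, and METH replicate 6, at 6.81, has Kcnc2 at 9.31. Both arrays with detected Kcne2 have marker means of 8.84 and 8.66.

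At 24 h markers of other cell types also differed between the groups. All 6 tested blood markers lay below 0, and 4 of them, all globin genes, passed the adjusted threshold. The median log2 change over the list was -1.60, and summed signals were 7641 to 19894 in saline and 2335 to 6139 in METH samples. Alas2 and Hba-a2 were detected on no array. Of 10 tested microglia markers 9 lay above 0 and 7 had an unadjusted p under 0.05, but 0 passed the adjusted threshold, with a median of 0.36. Their summed signal was 1245 to 1891 in saline and 1628 to 3296 in METH samples. The part of these cells in the Kcnip4, Kcnh6, Kcnip1 and Kcnab1 values was not tested.

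Proteins that bind potassium channels were examined as a list of 34 genes, of which 22 were tested. None passed the adjusted threshold at either time or for the difference by limma. At 2 h 1 had an unadjusted p under 0.05 on the higher side and 1 on the lower side, and at 24 h there was 0. Dpp10, a membrane partner of Shal channels, had mean levels of 5.35 in saline and 6.07 in METH samples at 2 h, a log2 change of 0.72 with an SE of 0.20 (adjusted p of 0.340 by limma). Dpp10 had its saline mean at the detection limit: the lowest detected level was 5.20 to 5.46 on saline arrays of slide 1. At 24 h its log2 change was 0.06. Pias3, a protein that binds Kcna and Kcnd pores and acts on transcription factors, had -0.30 with an SE of 0.12 at 2 h (adjusted p of 0.699 by limma). Dpp6, another Dpp partner of Shal channels, had -0.11 and -0.18, with SEs of 0.19 and 0.13. Of 14 genes of potassium pumps and cotransporters 8 were tested and 0 passed at either time, also at an unadjusted p under 0.05. Of 4 hyperpolarization-activated Hcn channels 2 had a probe and 0 were tested.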

How the data were processed

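The authors deposited probe intensities, called raw and non-normalized per the file headers. They are already background-subtracted, since 26.4% to 31.7% of each array's values lie below 0. The deposited detection score, headed a detection p-value, behaves as 1 minus p and stands in another probe order: its rank correlation with the intensity of the same line was -0.0136 to -0.00495. Scores were therefore assigned to intensities by rank within each array. The 1 missing score was set to its array's median. The authors also deposited log2 values, which were recomputed to within 2.17e-06 as log2 intensity, floored at 1, minus each probe's median over slide 1 or over slides 2 and 3. They served as an alternative. No source used here names the software behind these files.

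The neqc function of limma 3.58.1, run in R 4.3.3, processed the intensities (offset 16, quantile normalization of 24 arrays). The offset makes folds of dim probes smaller. A single lmFit and eBayes model held 4 group means and a term for slide 3, with weights per slide set (0.719 for slide 1, 1.39 for slides 2 and 3). P-values were adjusted by Benjamini-Hochberg over 10355 tested probes, and the tests were checked on simulated data: true 1.5-fold changes were recovered in 54% of 100 probes at 2 h and 83% at 24 h, and 2-fold changes in 92% and 98%. Unchanged probes made up 9.32% of the simulated calls at 2 h and 11.7% at 24 h, above the 5% aimed at. The simulation held 100 changed probes of each fold at each time, while the data gave 3 calls at 2 h and 6 at 24 h. The cutoff on the unadjusted p was therefore looser in the simulation, so its recovery shares are too high for these data. Symbols came from the platform's annotation (8730 probes have none). All 86 Kcn probes matched RefSeq (GRCr8). Coordinates are given for RefSeq promoters only.

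The members, lists, weights and tests were chosen with earlier results of these data known. Genes with full statistics are the 5 of lowest p in each direction and time, the 3 for the difference, those with several probes and a list fixed by role. Genes of the partner list were named by lowest p, and Dpp6 was added for its role. Array pairs with identical values numbered 0.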

Additional observations from a re-analysis of the deposited data

Results flagged for a closer look

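Each of the 44 tested Kcn probes was checked in each of the 4 groups for 1 array far from the other 5. Of 176 such sets 14 were marked (7.95%), against 8.8 expected by chance at 1 in 20. The arrays with more than 1 mark were saline replicate 4 of slide 1, METH replicates 4 and 6 at 2 h, METH replicate 3 at 24 h and saline replicate 5 of slides 2 and 3, with 2 each.

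On slide 1, saline replicate 4 was highest for Kcnk10, at 5.48 with the others up to 5.13, and for Kcnmb4, at 7.55 with the others up to 6.77. METH replicate 4 at 2 h was lowest for Kcnc2 (ILMN_2039099), at 5.55 with the others from 5.92 to 6.09, and highest for Kcnj8, at 5.27 with the others up to 4.91. METH replicate 6 at 2 h was highest for Kcna6, at 6.54, and lowest for Kcnt2, at 4.90. METH replicate 3 at 2 h was lowest for Kcng1, at 8.34.

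On slides 2 and 3, saline replicate 5 was lowest for the Shal pores Kcnd2, at 8.81 with the others from 9.39 to 9.67, and Kcnd3, at 6.19 with the others from 6.94 to 7.35. METH replicate 3 at 24 h was lowest for Kcnab1, at 7.28 with the others from 8.27 to 8.79, and highest for Kcnk2, at 10.19. Saline replicate 2 was lowest for Kcna5, at 5.04. METH replicate 2 at 24 h was highest for Kcnj4, at 6.31, and METH replicate 4 for Kcnt1, at 7.53.

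For Kcnt2 all 6 METH samples at 2 h lay below the mean of their saline samples and all 6 at 24 h lay above theirs. The effect at 24 h minus that at 2 h was 0.27 with an SE of 0.14 and an adjusted p of 0.985 by limma. The probe was detected on 9 arrays, 5 of them METH arrays at 24 h, and would not have passed the filter without these, so the difference is given as a description.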

How the results depend on the processing

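The count of Kcn probes past the adjusted threshold stayed at 0 at 24 h and for the difference between the times under every alternative run. These were other normalizations, offsets, filters, weights and covariates and each array left out in turn. At 2 h it was 0 under all of them except 1 setting chosen after seeing the data: with 1 spread for all arrays and METH replicate 4 left out it was 1, Kcnc2 (ILMN_1375744), with a log2 change of 0.78 and an adjusted p of 0.00762. Over the alternatives the adjusted p of that probe ran from 0.00762 to 0.916. The median log2 change of Kcn probes at 2 h was 0.13 in the deposited log2 values (0.20 over all probes), 0.10 in those values centred per array (0.17 over all) and 0.08 with median scaling (0.15 over all). Relative to all probes these are below 0, as in the values reported. With each array left out in turn, the median ran from -0.05 to 0.02 at 2 h and from -0.01 to 0.02 at 24 h. Of 3036 values for 27 named probes, 66 moved by more than the spread between replicates and 124 changed sign, with no called value among them. No paired analysis was possible because the labels give no replicate numbers. Probes detected on no array had no value to compare, so nothing is said of change in 34 of 86 Kcn probes.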
